A study of Mus musculus with 6 samples.

Results

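Genomic imprinting is the expression of a gene from the maternal or the paternal copy alone, and 10 imprinted genes were examined in mouse aorta with and without miRNA-26b, out of 55341 genes in the deposited count table. They were chosen by symbol: *Meg3*, *Rian*, *Mirg* and *Dlk1* of 1 cluster, *H19*, *Igf2* and *Cdkn1c* of a chromosome 7 domain, and *Peg3*, *Plagl1* and *Grb10* of clusters of their own. *Meg3* was included for its unadjusted p-value in the same comparison of genotypes, so the knockout and wild-type values of the 10 genes are given as a description, and no p-value of theirs is read as a result. All 10 symbols were found, 9 had reads, and 8 passed the filter on low counts, which asked for more than 1 CPM (1 count in 1000000, scaled to library size) in at least 2 libraries.

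The study asked how the lack of miRNA-26b changes the RNA of the vessel wall. The knockout group (miRNA-26b-/-) holds 3 libraries, named M2626, M2627 and M2628, from mice in which a floxed hairpin inside the host gene *Ctdsp1* had been deleted by tamoxifen and CreERT2, after which the CreERT2 transgene was bred out. The labels call their genotype KO miRNA26B. The wild-type group (miRNA-26b+/+) holds 3 libraries, M2629 to M2631, labelled naive. All mice were 8 weeks old on chow, with 1 library per mouse. The labels give C57BL/6NCrl as the strain of both groups, whereas the embryonic stem cells were R1/E (129/Sv) and the founder strains had a mixed 129/Sv and C57BL/6 background, so genotype and residual 129/Sv segments cannot be told apart. The labels name aortic endothelial cells, whereas the study describes explants of the aortic arch and thoracic aorta.

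Imprinted genes lie in clusters controlled by regions whose DNA methylation is set in the egg or the sperm and then kept in the body's cells. Many act on growth before birth: the paternally expressed *Igf2* and *Dlk1* promote it, and the maternally expressed *H19*, *Cdkn1c* and *Grb10* restrain it. Most of them are silenced in large part after birth, and vessels keep some of this expression in adult life. Reads per gene do not tell the parental copies apart, so every value here is the sum of both.

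The libraries held 25706728 to 33345037 counts, and their normalization factors lay between 0.982 and 1.015. A floor of 3 counts corresponded to 0.0893 to 0.117 CPM, which covers counting error only. The deleted hairpin, *Mir26b*, had 0 counts in each miRNA-26b-/- library, and 0, 20 and 0 counts in M2629, M2630 and M2631, so its reads do not check the labels of either group. The smooth muscle marker *Acta2* reached 14200 to 18300 CPM. The 8 endothelial markers summed to 467.9 and 489.9 CPM in M2626 and M2627, to 1765 CPM in M2628, and to 1236 to 1700 CPM in the wild-type libraries. Smooth muscle RNA was thus far the more abundant, and the endothelial sum differed between libraries. That sum rested mostly on *Vwf* and *Pecam1*. *Kdr* was lowest in M2628, at 8.82 CPM, and *Egfl7* was higher in M2626 than in M2628, at 38.3 against 31.2 CPM. The other endothelial markers were lower in M2626 and M2627 than in every other library. In whole tissue, fewer cells of a type and less RNA per cell cannot be told apart.

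The sequences below are the mature strands missing in the knockout mice and the places in the 10 genes that could pair with the seed of the main strand. Both strands are from RefSeq on GRCm38.p6, at chr1:74394324-74394344 and chr1:74394360-74394381 on the forward strand, and capitals mark the seed.
miR-26b-5p: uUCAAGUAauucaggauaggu
miR-26b-3p: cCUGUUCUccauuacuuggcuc
A miRNA lowers the level or the translation of RNAs that pair with its seed, mostly in the 3′ untranslated region (3′ UTR). The sites searched were the 8mer TACTTGAA and its parts, the 7mers TACTTGA and ACTTGAA, on the transcribed strand, in the longest annotated 3′ UTR of coding genes and in the longest transcript of noncoding genes. A gene matched with the 8mer was not counted again for its 7mers at the same place.

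Sites were found in 3 of the 10 genes. They are shown 5′ to 3′ on the transcribed strand, with the match in capitals.
Grb10: cttcccattaTACTTGAAaagctttt
Rian: tttttttttaACTTGAAtttttttt
Mirg: caacactgggTACTTGAggagaggt
The *Grb10* match was an 8mer at position 585 of a 3′ UTR of 2955 bases, chr11:11932871-11932878 on the reverse strand of GRCm38. The *Rian* match was a 7mer at chr12:109646552-109646558 on the forward strand, within a run of T. The *Mirg* match was a 7mer at chr12:109743718-109743724 on the forward strand. None of these 3 motifs was found in the 14548 bases of the longest *Meg3* transcript, or in the regions searched for *Dlk1*, *H19*, *Igf2*, *Peg3*, *Plagl1* and *Cdkn1c*.

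A site of either kind was present in 18.9% of 21173 coding 3′ UTRs and in 14.3% of 10135 long noncoding transcripts, and an 8mer in 4.3% and 2.1%. Long sequences hold more matches. Among 3′ UTRs about as long as that of *Grb10*, 35% had a site, counting 7mers as well as 8mers. The share for long noncoding transcripts about as long as *Rian* was 59%, and for those about as long as *Mirg* it was 37.2%. For *Meg3*, which had no site, it was 71.4%, over 7 transcripts of like length. These matches are letters in an annotated transcript and not sites of action.

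The 8 genes that passed the filter did not move in 1 direction. *Meg3* was 3.85 times as high in the mean of the miRNA-26b-/- libraries as in the mean of the wild-type libraries. The log2 fold changes of the other 7 lay between -0.27 (*Plagl1*) and 0.46 (*H19*), with standard errors of 0.20 to 0.65. At an unadjusted p under 0.05 in edgeR's quasi-likelihood test, 1 of the 8 genes was counted, *Meg3*, against 6.46% of all 16017 genes tested, and nothing is read from this count since the gene was chosen on that value. The median log2 fold change was 0.18 over the 8 genes and 0.01 over all genes tested. After Benjamini-Hochberg adjustment 1 gene of the whole table, or 0.00624%, was under 0.05, and it was not one of the 10.

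**Figure D1:**
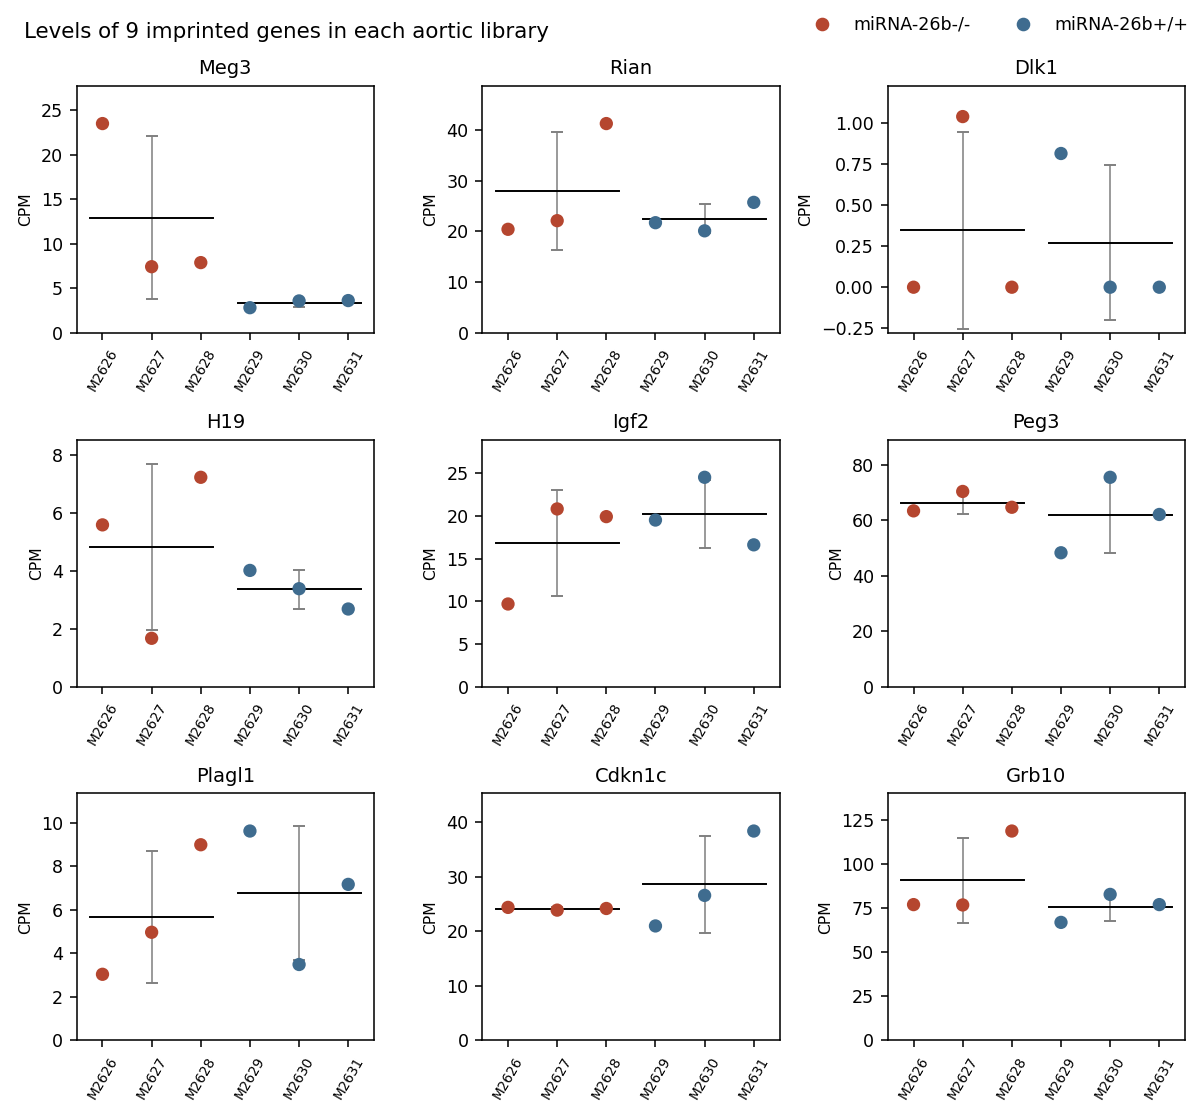
CPM of the 9 imprinted genes with reads (vertical axes, each with its own scale) in the 6 libraries (horizontal axes). Points are libraries, red for miRNA-26b-/- and blue for miRNA-26b+/+, horizontal lines are group means and bars are 1 SD over 3 mice. The groups are separate for *Meg3*, at 7.44 to 23.5 CPM against 2.84 to 3.64 CPM, and overlap for the other 8 genes.

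*Meg3* (ENSMUSG00000021268) is the maternally expressed long noncoding RNA of the Dlk1-Dio3 cluster, named for its expression and widely studied as a growth-restraining RNA. It lies at chr12:109541001-109571726 on the forward strand of GRCm38, with 11 annotated transcripts of up to 10 exons. Its reads numbered 601, 250 and 223 in M2626, M2627 and M2628, and 87, 99 and 110 in M2629, M2630 and M2631. In CPM these were 23.5, 7.44 and 7.9 against 2.84, 3.6 and 3.64. Every miRNA-26b-/- library lay above every wild-type library, and M2626 stood apart from the other 2 knockout libraries. The same separation was seen for 5.65% of all genes tested. The means were 12.9 ± 9.12 CPM (SD, n = 3) and 3.36 ± 0.452 CPM (SD, n = 3), and the fitted log2 fold change was 1.89 with a standard error of 0.59. It was higher than that of 97.7% of the genes tested. Without M2626 it was 1.19, and without each of the other libraries in turn it was 1.78 to 2.20.

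The exons of *Meg3* contain all 1228 bp of exon of *Gm26906*, a noncoding gene on the opposite strand. Reads were counted without strand and once for each gene they touched, so the reads of these 2 genes cannot be told apart where they overlap. *Gm26906* had 155, 84 and 41 reads in the knockout libraries and 14, 47 and 0 in the wild-type libraries. Its groups overlapped, and its reads came to 25.8, 33.6 and 18.4 per 100 *Meg3* reads in M2626 to M2628 and to 16.1, 47.5 and 0 in M2629 to M2631. The miRNA gene *Mir770*, inside *Meg3* on the same strand, had 2 reads in all.

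Of *Rian*, *Mirg* and *Dlk1* of the same cluster, *Rian* alone passed the filter, and it did not share the separation. *Mirg* and *Dlk1* were too low to show whether they shared it. *Rian*, a maternally expressed RNA that hosts small nucleolar RNAs, lies at chr12:109603940-109661716 on the same strand. It had 522, 742 and 1164 reads in M2626 to M2628, and 666, 552 and 777 in M2629 to M2631. M2628 was the highest library at 41.2 CPM, and the other 5 libraries lay between 20.1 and 25.7 CPM with both groups mixed. The means were 27.9 ± 11.6 and 22.5 ± 2.88 CPM (SD, n = 3 each), with a log2 fold change of 0.31 and a standard error of 0.30. Without M2628 it was -0.08, so the direction of the *Rian* difference rested on that library.

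*Meg3* had 115, 33.7 and 19.2 reads per 100 *Rian* reads in M2626, M2627 and M2628, and 13.1, 17.9 and 14.2 in M2629, M2630 and M2631. In M2626 *Meg3* thus had more reads than *Rian*, whereas *Rian* had more in each of the other 5 libraries. *Mirg*, the miRNA host RNA at chr12:109729764-109749460, had 0 reads in all 6 libraries, which allows up to the floor of 3 counts. *Dlk1*, the paternally expressed transmembrane protein that restrains fat cell differentiation, at chr12:109452823-109463336, had 35 reads in M2627, 25 in M2629 and 0 in the other 4 libraries. It had reads in 1 library of each genotype and was too low to be compared.

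Of the 144 genes annotated within 1 Mb of *Meg3*, 119 had 0 reads in all libraries. These included 71 of 72 miRNA genes and 22 of 23 small nucleolar RNA genes. The paternally expressed *Rtl1* had 110 reads in M2628 and 0 elsewhere, and *Dio3* had 0. Of 15 neighbours that passed the filter, 11 had a positive and 4 a negative log2 fold change, with a median of 0.27. Of these, *Gm26906* has all its exons inside those of *Meg3* and shares reads with it, so it is no separate neighbour. At an unadjusted p under 0.05 there were 2 of the 15, beside 6.46% of all genes: *Gm26906* and *Gm16596*, an antisense RNA at a distance of -985.4 kb. Neither passed after adjustment (edgeR quasi-likelihood test, adjusted p = 0.767 and 0.736).

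**Figure D2:**
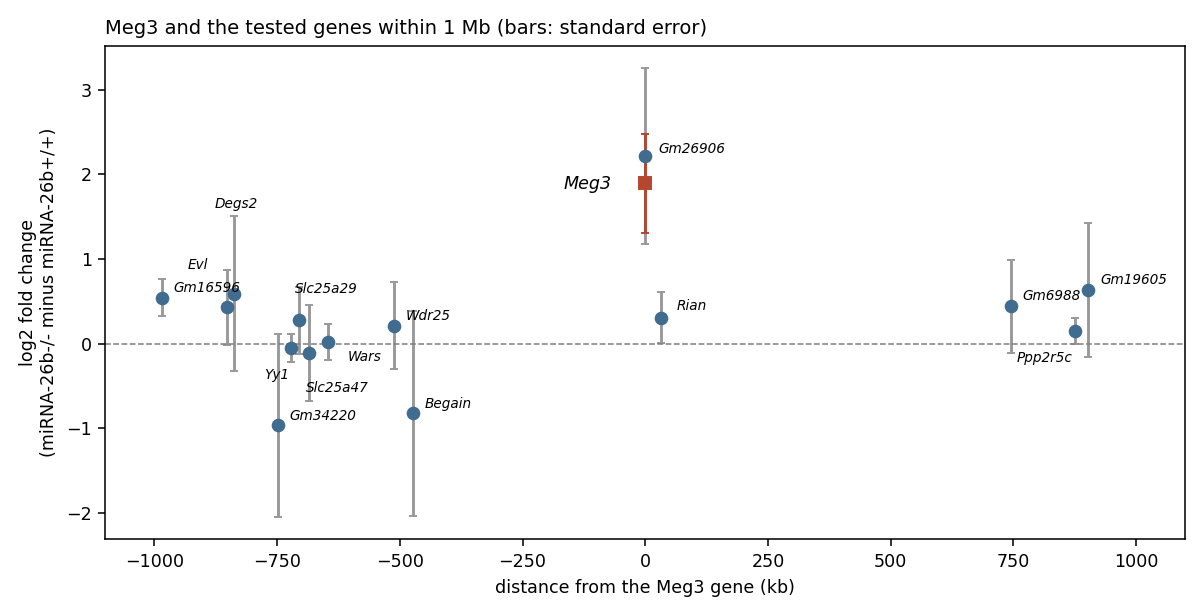
Log2 fold change, miRNA-26b-/- minus miRNA-26b+/+ (vertical axis), against the distance from the *Meg3* gene in kb (horizontal axis) for *Meg3* (red square) and the 15 genes within 1 Mb that passed the filter (blue points). Bars are standard errors. *Meg3* at 1.89 and *Gm26906* at 2.21, which shares its place, stand above the other 14 genes, which lie between -0.97 and 0.63.

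*H19* and *Igf2* share a control region on chromosome 7 and enhancers beyond it. *H19*, a maternally expressed noncoding RNA and host of *Mir675*, lies at chr7:142575529-142578143 on the reverse strand. It had 143, 56 and 204 reads in M2626 to M2628 and 123, 93 and 81 in M2629 to M2631, or 5.58, 1.67 and 7.22 CPM against 4.01, 3.38 and 2.68 CPM. The lowest and the 2 highest libraries were all knockout libraries. The fitted log2 fold change was 0.46 with a standard error of 0.65, and it was 0.94 without M2627 and 0.01 without M2628. The overlapping *Mir675* had 15 and 39 reads in M2629 and M2630 and 0 elsewhere.

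*Igf2*, the paternally expressed insulin-like growth factor of the fetus, lies at chr7:142650766-142666816 on the reverse strand. It had 248, 699 and 563 reads in M2626 to M2628 and 598, 673 and 501 in M2629 to M2631. M2626 was the lowest library at 9.68 CPM, and the other 5 lay between 16.6 and 24.5 CPM with both genotypes mixed. The log2 fold change was -0.23 with a standard error of 0.33, and 0.02 without M2626. Nearly every read of *Igf2* was also counted for *Gm49394*, a coding model that shares 3596 bp of exon with it on the same strand, at 100 to 102 *Igf2* reads per 100. The reads of *H19* per 100 *Igf2* reads were 57.7, 8.01 and 36.2 in the knockout libraries and 20.6, 13.8 and 16.2 in the wild-type libraries. The knockout libraries thus lay on both sides of the wild-type libraries.

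*Cdkn1c*, which encodes the maternally expressed cyclin-dependent kinase inhibitor p57Kip2, lies further along the same chromosome at chr7:143458339-143461050. It was almost level among the knockout libraries, at 24.4, 23.9 and 24.2 CPM, and spread from 21 to 38.4 CPM among the wild-type libraries. The log2 fold change was -0.25 with a standard error of 0.27, and 0.02 without M2631, the highest library. The antisense gene *Gm44732* overlaps 625 bp of *Cdkn1c* and had 2174 reads in all, which cannot be told apart from those of *Cdkn1c* there. Its log2 fold change was -0.60 with a standard error of 0.37.

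*Grb10*, an adaptor that binds the insulin and IGF1 receptors and damps their signal, is expressed from the maternal copy in most tissues and from the paternal copy in neurons. It lies at chr11:11930508-12038683 on the reverse strand. It had 77.2, 77 and 119 CPM in M2626 to M2628 and 67.1, 83 and 77.2 CPM in M2629 to M2631. M2628 was the highest library and the other 5 overlapped. The fitted log2 fold change was 0.26 with a standard error of 0.20, and 0.03 without M2628. This was the gene of the 10 with an 8mer for miR-26b-5p in its 3′ UTR.

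*Peg3* and *Plagl1* are paternally expressed zinc finger transcription factors. *Peg3*, at chr7:6703892-6730431 on the reverse strand, had 63.4, 70.4 and 64.7 CPM in M2626 to M2628 and 48.3, 75.5 and 62.1 CPM in M2629 to M2631. The wild-type libraries enclosed the knockout libraries. A log2 fold change of 0.10 was fitted, with a standard error of 0.20, and it was -0.05 without M2629. *Plagl1*, at chr10:13060504-13131694 on the forward strand, had 3.04, 4.97 and 8.99 CPM in M2626 to M2628 and 9.62, 3.49 and 7.17 CPM in M2629 to M2631. Both genotypes held low and high libraries, and the fitted log2 fold change was -0.27 with a standard error of 0.54, and 0.08 without M2629.

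Levels can be set against each other only per length of exon, in CPM per kb of exon (RPKM), where the length is that of all annotated exons of a gene joined. On this scale *Cdkn1c* was the highest of the 10, with a mean of 13 RPKM over 6 libraries, followed by *Grb10* at 9.17, *Peg3* at 4.81 and *Igf2* at 3.23. Then came *H19* at 1.66, *Rian* at 1.38, *Plagl1* at 0.795, *Meg3* at 0.45 and *Dlk1* at 0.0547. The level of *Cdkn1c* includes any reads of the antisense *Gm44732* in their overlap, so its place above *Grb10* is not certain. *Cdkn1c* was higher than 77% of the genes tested and *Meg3* higher than 8.8%, so the largest fold change of the 8 was found in a gene of low level on this scale. The rank of *Meg3* depends on the joined length, which was 18089 bp, where its longest transcript has 14548 bases.

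Within the order, *Grb10* exceeded *Peg3*, *Peg3* exceeded *Igf2*, and *Meg3* exceeded *Dlk1* in all 6 libraries. *H19* exceeded *Rian* in 4 of 6, so these 2 neighbours did not differ beyond their spread. The other neighbours kept their order in 5 of 6 libraries. The exception to *Plagl1* over *Meg3* was M2626, where *Meg3* reached 1.3 RPKM against 0.157 to 0.437 RPKM elsewhere.

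**Figure D3:**
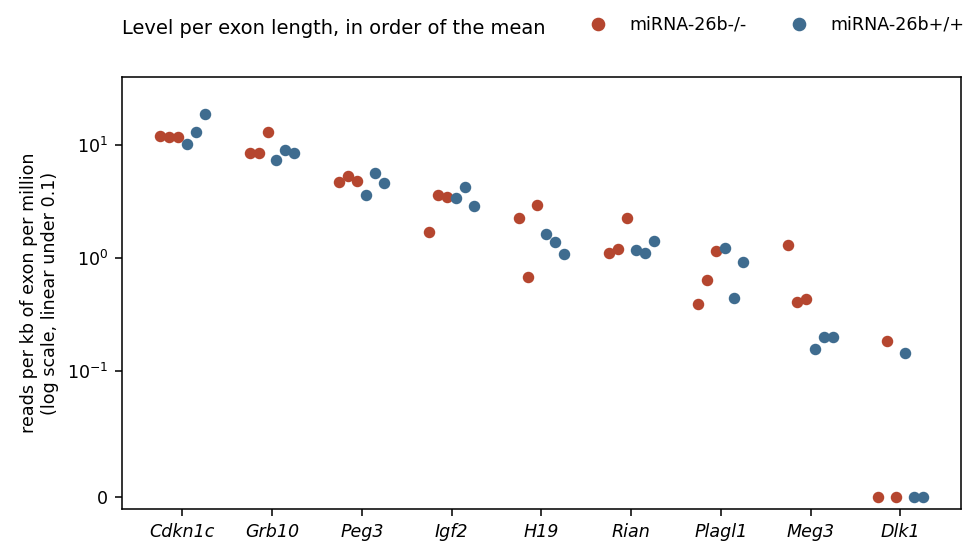
Level in RPKM (vertical axis, logarithmic above 0.1 and linear under it) of the 9 imprinted genes with reads (horizontal axis, in order of the mean). Each point is a library, red for miRNA-26b-/- and blue for miRNA-26b+/+. The means run from 13 RPKM for *Cdkn1c* to 0.0547 RPKM for *Dlk1*, and *Meg3* is the gene whose red points all lie above its blue points.

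Among the marker sums of cell types, that of Schwann cells alone was separate between the genotypes, as *Meg3* was. The 10 Schwann cell genes, which mark the sheath cells of nerve, summed to 608.4, 567.8 and 422.5 CPM in M2626 to M2628 and to 255.9, 273.3 and 343.7 CPM in M2629 to M2631. Like *Meg3*, this sum was higher in every knockout library and highest in M2626. All 9 Schwann cell genes tested had a positive log2 fold change and 7 had an unadjusted p under 0.05, beside 3.40% of all genes. The lowest adjusted p was 0.102 (edgeR quasi-likelihood test, *Mbp*, log2 fold change 2.08), and *Mag* had reads in M2627 alone. The 8 skeletal muscle genes summed to 38.95, 95.53 and 8.392 CPM in M2626 to M2628 and to 6.486, 11.9 and 3.238 CPM in M2629 to M2631. The groups overlapped for this sum, and M2627 was its highest library. All 8 had a positive log2 fold change and 7 an unadjusted p under 0.05, beside the same 3.40% of all genes. *Mylpf*, *Myh4* and *Myh1* had 0 reads in every wild-type library. These genes, *Tnnt3* and *Tnnc2* passed the filter through knockout libraries alone, so their direction was set by the filter and nothing is read from it. *Myh4*, *Myh1*, *Tnnc2* and *Tnni2* had no reads in M2628. The part of these cell types in the *Meg3* difference was not tested.

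Other marker sums moved with single libraries. The 8 fibroblast genes reached 14910 CPM in M2628 and 7876 to 10140 CPM elsewhere, and M2628 was also the highest library for *Rian*, *H19* and *Grb10*. The 10 sympathetic neuron genes reached 404.6 CPM in M2627 and 64.13 to 156.5 CPM elsewhere, and the adipocyte genes reached 2056 CPM in M2627 and 525.4 to 1484 CPM elsewhere. M2627 was the lowest library for *H19*. The cardiac muscle genes were high in M2627 and M2630, at 375.2 and 321.7 CPM, and at 19.19 to 76.69 CPM elsewhere. The leukocyte genes reached 632.3 CPM in M2628 and 239.1 to 450.9 CPM elsewhere, and the smooth muscle genes spanned 31440 to 42350 CPM with overlapping groups. The part of any of these in the levels of the 10 genes was not tested.

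**Figure D4:**
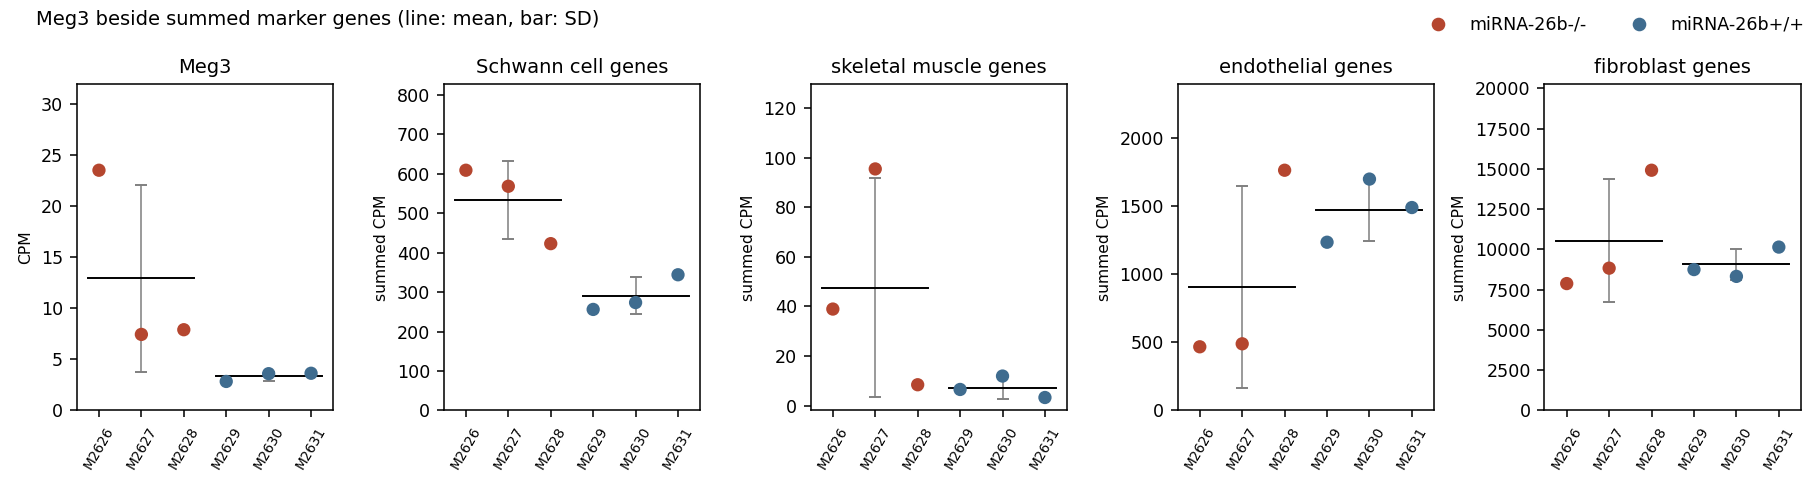
*Meg3* in CPM and the summed CPM of Schwann cell, skeletal muscle, endothelial and fibroblast marker genes (vertical axes) in the 6 libraries (horizontal axes, red miRNA-26b-/-, blue miRNA-26b+/+). Horizontal lines are means and bars are 1 SD over 3 mice. *Meg3* and the Schwann cell sum, at 422.5 to 608.4 against 255.9 to 343.7 CPM, are separate between the genotypes, and the other 3 sums overlap.

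The genes whose pattern over the 6 libraries was most like that of *Meg3* were *Pmf1*, *Neat1*, *Clec2d*, *Dcps* and *Plekha4*. Likeness was the root mean square difference of log2(CPM + 0.5) values centred on each gene's mean, among 9768 genes, which were those with a mean of at least 10 CPM and the 8 imprinted genes that passed the filter. It was 0.463 for *Pmf1* and 0.511 for *Plekha4*, where *Meg3* itself deviated from its own mean by 0.961. None of the other 7 imprinted genes was among the nearest: the closest, *H19*, held rank 2861 and *Rian* rank 5488. The noncoding RNA *Neat1* had 207, 88.8 and 99.4 CPM in M2626 to M2628 and 69.5, 57.5 and 90.3 CPM in M2629 to M2631, so M2626 stood apart for it as well. The 5 genes nearest to *H19* were *Gli2*, *Ctps2*, *Fap*, *H2-Ab1* and *H2-Aa*, at 0.124 to 0.206, where *H19* deviated from its own mean by 0.599. Among imprinted genes *Grb10* was the nearest to *H19*, at rank 811. Every one of these distances rests on 6 libraries.

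The rest of the imprinted genes were examined with a list of 52 further mouse genes that are imprinted in at least 1 tissue. Of these, 45 had reads and 38 passed the filter, 20 with a positive and 18 with a negative log2 fold change and a median of 0.03. None had an unadjusted p under 0.05 with edgeR, where 6.46% of all genes did, and the lowest p was 0.0697, for *Igf2r*. With limma voom there was 1, *Peg10*. Among the 19 genes with a mean of at least 10 CPM, the log2 fold change lay between -0.44 (*Zrsr1*) and 0.42 (*Tssc4*), with standard errors of 0.12 to 0.37. A change as large as that fitted for *Meg3* was not seen in any of these 19, but *Meg3* itself had a mean of 8.14 CPM. With that mean it belonged with the other 19 genes, near the top of their levels. The other 19 were lower in level and less certain, from -1.07 (*Peg10*) to 1.75 (*Peg12*), with standard errors of 0.45 to 1.85. *Peg12* had a mean of 0.93 CPM and a standard error of 1.14. It passed the filter through knockout libraries alone, so nothing is read from its direction. *Peg10*, with a mean of 7.29 CPM, was nearer to *Meg3* in level than *Peg12* was. *Zrsr1*, *Tssc4*, *Peg10* and *Peg12* are named as the ends of these ranges, chosen after their values were seen.

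Among the 27 paternally expressed genes, 19 passed the filter, 11 with a positive and 8 with a negative log2 fold change and a median of 0.09. The summed level of the 27 was 410.7 to 421.9 CPM in the knockout libraries and 423.8 to 510.2 CPM in the wild-type libraries, so the groups were separate but close. This sum rests mostly on abundant genes, and its direction was not that of the median gene. The largest term was *Peg13*, a noncoding RNA, with 165, 130 and 151 CPM in M2626 to M2628 and 175, 171 and 182 CPM in M2629 to M2631. Every knockout library was lower, with a log2 fold change of -0.25 and a standard error of 0.15, and the same separation downward was seen for 5.88% of all genes. *Sgce*, which encodes a sarcoglycan, and *Impact*, a regulator of translation, had log2 fold changes of -0.14 and -0.07 with overlapping groups.

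Of the 24 maternally expressed genes, 18 passed the filter, 9 in each direction, and the summed level overlapped at 1218 to 1275 CPM in the knockout and 1266 to 1345 CPM in the wild-type libraries. *Igf2r*, the receptor that takes up Igf2 for degradation, had 109, 129 and 161 CPM in M2626 to M2628 and 143, 192 and 173 CPM in M2629 to M2631, and its groups overlapped at a log2 fold change of -0.34 with a standard error of 0.18. The abundant *Cd81*, a membrane tetraspanin, and *H13*, a signal peptide peptidase, had log2 fold changes of -0.04 and 0.05. *Gnas*, which encodes a stimulatory G protein subunit and has transcripts of either parental copy, had 1080 to 1270 CPM and a log2 fold change of -0.06 with a standard error of 0.12. Genes at 0 in all libraries were *Magel2*, *Ins2*, *Dio3*, *Rasgrf1*, *Ascl2*, *Calcr* and *Klf14*.

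**Figure D5:**
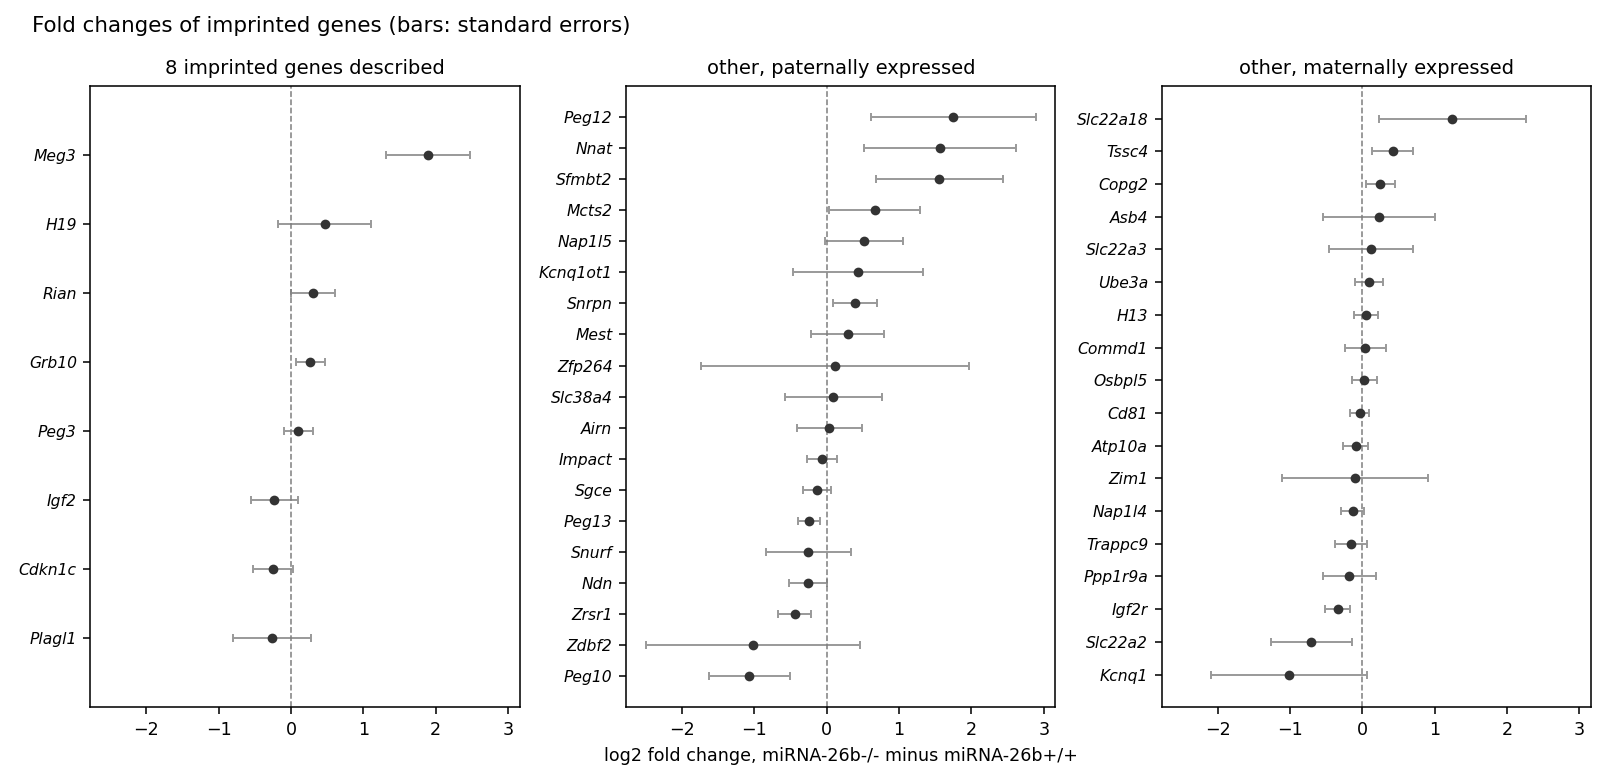
Log2 fold change, miRNA-26b-/- minus miRNA-26b+/+ (horizontal axes), of the 8 imprinted genes described and of 19 paternally and 18 maternally expressed further genes (vertical axes, in order of fold change). Points are fitted values and bars are standard errors. *Meg3*, chosen on this comparison, is drawn at 1.89 and the other 7 between -0.27 and 0.46, and *Gnas*, expressed from both copies, is not drawn.

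The partners of these genes were examined in 3 further lists, of which 30 of 35 genes passed the filter. At an unadjusted p under 0.05 there were 3 higher and 3 lower in the knockout libraries, against 3.40% and 3.07% of all genes. None passed after adjustment over all genes (edgeR quasi-likelihood test, lowest adjusted p = 0.648). Of the 3 lower genes, *Dnmt3b* and *Zfp57* passed the filter through wild-type libraries alone.

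Of the 13 genes that set, keep or remove imprints, 12 passed the filter. *Tet1*, an enzyme that oxidizes methylated cytosine, had 16.8, 21.8 and 27.6 CPM in M2626 to M2628 and 6.91, 11.8 and 5.95 CPM in M2629 to M2631. The groups were separate, with a log2 fold change of 1.45, a standard error of 0.36 and an adjusted p = 0.648 with edgeR, where the alternatives gave 0.137 to 0.984. *Dnmt3a*, which sets new DNA methylation, was separate as well, at 100, 93.4 and 104 CPM against 69.3, 65.8 and 70.6 CPM, with a log2 fold change of 0.53 and a standard error of 0.16. Its adjusted p was 0.734 with edgeR and 0.179 to 0.984 with the alternatives. An upward separation like that of *Tet1* and *Dnmt3a* was seen for 5.65% of all genes tested.

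*Dnmt3b*, the other enzyme of new methylation, had 13, 5 and 17 reads in the knockout libraries and 77, 81 and 37 in the wild-type libraries. *Zfp57*, a zinc finger protein that protects imprints in the embryo, had 5, 0 and 0 reads against 74, 20 and 38. Both were lower in every knockout library, as were 5.88% of all genes tested, at levels of 2.95 CPM or less. Only wild-type libraries exceeded 1 CPM, so both passed the filter through that group and nothing is read from their direction. Neither passed after adjustment (edgeR, adjusted p = 0.736 for both). The unadjusted p under 0.05 of both was lost with limma voom and with the earlier quasi-likelihood method of edgeR. It was also lost for *Dnmt3b* without M2626, M2627, M2629 or M2630, and for *Zfp57* without M2627 or M2628. *Trim28*, the partner of Zfp57, and *Ctcf*, which binds the *H19* control region, were far more abundant and overlapped, with log2 fold changes of -0.14 and -0.29 and standard errors of 0.16 and 0.21.

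Of the 15 genes of the insulin-like growth factor axis, 13 passed the filter. *Igfbp2*, a binding protein of Igf2, had 10.8, 31.2 and 19.4 CPM in M2626 to M2628 and 39.6, 34.4 and 30.5 CPM in M2629 to M2631. Its log2 fold change was -0.73 with a standard error of 0.31 (edgeR adjusted p = 0.74), and M2626 was the lowest library, as it was for *Igf2*. The log2 fold change of *Igfbp2* was -0.45 without M2626 and -1.20 without M2627, and the unadjusted p under 0.05 was lost with DESeq2 and without M2626, M2628, M2629 or M2630. *Igfbp6*, which prefers Igf2 to Igf1, had 92.4, 93 and 166 CPM against 80.7, 84.4 and 77.8 CPM. Every knockout library was higher, as for 5.65% of all genes tested, and M2628 was again the highest library. The log2 fold change was 0.53 with a standard error of 0.22, and the adjusted p was 0.736 with edgeR. Without M2628 the log2 fold change of *Igfbp6* was 0.20, and the unadjusted p under 0.05 was lost, as it was without M2629 or M2631. The most abundant binding proteins were *Igfbp7*, *Igfbp5* and *Igfbp4*, with log2 fold changes of -0.03, -0.24 and -0.13 and overlapping groups.

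Of the 7 paralogs of the 10 genes, 5 passed the filter and none had an unadjusted p under 0.05 with edgeR. *Cdkn1a* and *Cdkn1b*, the other inhibitors of the family of *Cdkn1c*, had log2 fold changes of 0.16 and -0.09 with standard errors of 0.24 and 0.20. *Grb14*, the adaptor most like *Grb10* here, had 50.5 to 62.8 CPM and a log2 fold change of 0.07 with a standard error of 0.18.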

How the data were processed

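Total RNA of aortic vessels from 3 miRNA-26b-/- and 3 miRNA-26b+/+ mice was sequenced, and libraries were grouped by the genotype label. Replicate numbers follow the order of the samples and pair nothing. The authors deposited read counts per gene name. Alignment was by STAR to GRCm38, and counting by featureCounts 1.6.4 used the exons of GENCODE release M21, per the file headers, without strand and with a read counted for every gene it overlapped (the paper names release M23). A second deposited table holds log2 CPM per library and the authors' own fold change, statistic and p-value, and was not used.

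A gene was tested if its counts summed to 2 or more and exceeded 1 CPM in 2 or more libraries at the unadjusted library size, whereas CPM values printed use the TMM-adjusted library size. Fits used TMM factors and edgeR's quasi-likelihood test (edgeR 4.0.16, R 4.3.3), where the prior count was 0.125. Standard errors are the log2 fold change over the square root of the F statistic. Benjamini-Hochberg adjustment ran over the 16017 genes. The p-values measure the spread among these mice, and the labels give no batch. The procedure was tested on simulated data. The 10 genes, the other lists and the markers were chosen with earlier results of these data known. Genes named are the 10 genes, every listed partner or imprinted gene with an unadjusted p under 0.05, the 3 most abundant of each of those lists, genes that overlap the 10, genes within 1 Mb of *Meg3* by count and range, and the 5 genes nearest to *Meg3* and to *H19*. Markers and the ends of ranges are named beside these. Seed sites were searched in transcripts of GENCODE M21, and miRNA sequences are from RefSeq.

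Alternatives were size factors or library size for normalization, no filter or filterByExpr, DESeq2 1.42.0, limma 3.58.1 with voom, the earlier quasi-likelihood method of edgeR, a prior count of 2, each library left out in turn, and 8mer sites alone.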

Additional observations from a re-analysis of the deposited data

How the results depend on the processing

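The log2 fold change of *Meg3* stayed positive under every alternative run, at 1.67 to 1.95 with other methods and 1.19 to 2.20 with a library left out. The number of the 8 genes at an unadjusted p under 0.05 was 0 to 1 with a library left out, 0 being without M2626, and nothing is read from it since *Meg3* was chosen on that p-value. With a library left out, the number of all genes at that threshold ran from 686 to 1692, the latter without M2628. Of the 1035 genes, 544 were higher and 491 lower, against 365 and 482 with limma voom, 788 and 904 without M2628, and 454 and 324 without M2630. The number after adjustment was 57 with DESeq2, 3 with limma voom, 0 with the earlier edgeR method and 0 to 82 with a library left out, 82 being without M2628. The number of other imprinted genes was 1 with limma voom and 0 to 2 with a library left out: *Nnat* and *Peg10* without M2626, *Sfmbt2* and *Igf2r* without M2628, *Igf2r* without M2629 and *Zrsr1* without M2630. The partners numbered 4 to 6 throughout. With 8mer sites alone, 1 of the 10 genes had a site.

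The signs of *Rian*, *Igf2*, *Peg3*, *Plagl1* and *Cdkn1c* turned with 1 library left out, to -0.08, 0.02, -0.05, 0.08 and 0.02. Among the other genes named, *Sgce* ranged from -0.235 to 0.028 (positive without M2631), *Impact* from -0.224 to 0.046 (positive without M2626 or M2630), *Cd81* from -0.077 to 0.003 (positive without M2631) and *H13* from -0.089 to 0.157 (negative without M2627). *Igfbp7* ranged from -0.082 to 0.047 (positive without M2628 or M2631), *Igfbp4* from -0.388 to 0.088 (positive without M2626), *Cdkn1a* from -0.195 to 0.346 (negative without M2628), *Cdkn1b* from -0.258 to 0.035 (positive without M2628) and *Grb14* from -0.003 to 0.13 (negative without M2626). The cause was not tested. *Zfp57* could not be fitted without M2629 or M2631, where it no longer passed the filter. No paired analysis was possible because the labels give no replicate numbers. With 3 mice per group, the smallest p of an exact permutation test is 0.1, and *Mirg* and *Dlk1* were too low for any comparison.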
